A study of Homo sapiens with 10 samples.

Results

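The genes described here are 32 genes for cytosolic and mitochondrial heat shock proteins, their co-chaperones, the chaperonin CCT and the heat shock transcription factor HSF1. They were taken by name from a list that was drawn up with earlier results of these data known. All 32 were found among the 58174 gene identifiers of the count tables, and all 32 were among the 13743 genes abundant enough to be tested. RNA was sequenced from SNU-387, an established cell line from a pleomorphic hepatocellular carcinoma, carrying a stably expressed YES transgene that was either wild type or the gatekeeper mutant T348I. YES is a tyrosine kinase of the SRC family, dasatinib is an inhibitor of SRC-family and ABL kinases, and the gatekeeper residue lies in the pocket where such inhibitors bind. There were 5 libraries per genotype, and the cells behind all 10 libraries had received 100 nM dasatinib. Untreated libraries were not analysed here, and the values compare genotypes under the drug and not the response to it. Sample titles came in a long style (3 libraries per genotype) and a short style (2 per genotype). These title sets may be batches, and the model carries a term for them. The labels do not say whether libraries came from separate cultures or clones, so p-values measure only how far these samples spread, and that spread can be technical.

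Chaperones bind proteins that are not yet folded or have lost their fold. HSP70 proteins cycle on and off a client under the control of J-domain proteins, which start the cycle, and of nucleotide exchange factors, which end it, while HSP90 and its co-chaperones act later, on kinases and steroid receptors among others. HSP60 with HSP10 in the mitochondrion and CCT in the cytosol are barrel-shaped chaperonins that enclose a client, and actin and tubulin are the best known clients of CCT. SRC-family kinases are known HSP90 clients. After heat or other stress, HSF1 binds heat shock elements, inverted repeats of the unit GAA, and raises transcription of many of these genes.

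Heat shock elements were searched for in the 250 bases before each annotated start site, because a shared element is the known link between these genes. Promoter windows from RefSeq (build GRCh38.p14) were found for 28 of the 32 genes, 41 windows in all. HSPA14, FKBP4, CCT6A and HSF1 had none. A run of 3 units, GAANNTTCNNGAA or TTCNNGAANNTTC, stood in 6 of these 28 genes (21.4%) and in 0.557% of 27305 genes. A run of 2 units, GAANNTTC or TTCNNGAA, stood in 16 of 28 genes (57.1%) and in 14.0% of all. Each run of 3 contains runs of 2. Both strands are covered, since the 2-unit motifs are their own reverse complements and the 3-unit motifs are each the reverse complement of the other. Overlapping matches were merged. The stretches below show the 3-unit runs of the genes that have them, 1 stretch per gene, and the 2-unit runs of the stress-induced pair HSPA1A and HSPA1B and of DNAJB1. Capitals mark the run, and the strand is that of the gene.
HSPA8 (chr11:123062171-123062199, minus): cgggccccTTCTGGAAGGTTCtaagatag
HSP90AA1 (chr14:102087112-102087140, minus): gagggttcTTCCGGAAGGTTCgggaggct
HSP90AB1 (chr6:44247770-44247798, plus): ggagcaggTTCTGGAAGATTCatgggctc
CHORDC1 (chr11:90223084-90223112, minus): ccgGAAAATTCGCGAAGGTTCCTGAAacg
DNAJB6 (chr7:157336865-157336893, plus): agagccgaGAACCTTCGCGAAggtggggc
HSPD1 (chr2:197500062-197500090, minus): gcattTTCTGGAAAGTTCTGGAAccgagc
HSPA1A (chr6:31815426-31815455, plus): cgaaaaccctgGAATATTCccgacctggca
HSPA1B (chr6:31827622-31827651, plus): cgaaacccctgGAATATTCccgacctggca
DNAJB1 (chr19:14518456-14518485, minus): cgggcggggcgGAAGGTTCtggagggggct
The runs of HSPA8, HSP90AA1 and HSP90AB1 begin 55, 88 and 165 bases before a start site, and that of HSPD1 lies between its own 2 RefSeq start sites. Those of HSP90AA1 and HSP90AB1 also lie downstream of another RefSeq start site of their gene. The stretches printed for HSPA8, HSP90AA1, CHORDC1 and HSPD1 lie wholly within annotated exons of their own gene. HSPA8 and HSP90AB1 each hold a second 3-unit run. Of the CCT genes, 0 of 7 with a window held a 3-unit run and 2 of 7, TCP1 and CCT2, held a 2-unit run. A match is a stretch of letters and was not measured as a bound site.

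Read counts in genes ran from 10168307 to 16939029 per library. Levels are given in CPM, the reads of a gene brought to the same library total in every sample with TMM factors. The cell type marker levels below are the exception and were scaled to the counts in genes alone, without TMM factors. YES1 averaged 303 CPM in wild type (SD 102, n = 5) and 453 CPM in T348I (SD 86.4, n = 5). Its log2 fold change was 0.59 with an SE of 0.19 (edgeR quasi-likelihood test, adjusted p = 0.0326), though the libraries of the genotypes overlapped. An effect of YES1 level and an effect of the mutation cannot be told apart here. The YES1 counts do not separate the transgene from the cell's own gene, nor the mutant from the wild type, so they do not check the genotype. Of 15 hepatocyte markers 2 reached a mean of 1 CPM (AFP and SERPINA1), and APOC3, TTR and CYP3A4 were at 0 in every library. The summed hepatocyte markers were at 11.5 to 22.2 CPM in wild-type and 11.1 to 25.3 CPM in T348I libraries. All 7 fibroblast or mesenchymal markers were expressed, with summed levels of 10299 to 30931 CPM in wild-type and 6576 to 11049 CPM in T348I libraries, ranges that overlap at their ends. Of 5 epithelial markers 2, KRT8 and KRT18, reached 1 CPM, and the list summed to 674 to 954 CPM in wild type and 849 to 1031 CPM in T348I. Endothelial markers were low, with 1 of 4, PECAM1, at 1 CPM. They summed to 5.64 to 13.1 CPM in wild type and 3.12 to 5.31 CPM in T348I, ranges that narrowly did not overlap. Of single tested genes, 4.15% had all T348I libraries below all wild-type libraries. Immune markers (1 of 6, with CD3E at 0) summed to 5.30 to 42.0 CPM and 3.14 to 6.05 CPM. The part of these marker levels in the results below was not tested. In these bulk libraries a change in the mix of cells and a change of RNA per cell cannot be told apart. The 3 T348I long-title libraries were close copies of each other, and their counts over tested genes gave chi-square values of 1.61 to 2.12 per degree of freedom, where 1 is counting noise. The same measure was 13.6 to 52.8 among the wild-type long-title libraries, 30.7 for the wild-type pair with short titles and 8.37 for the T348I pair. Results are therefore also given with those 3 summed into 1 library.

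The chaperone transcripts that passed the test were all higher in T348I cells, and CCT subunits made up 7 of these 14. Of the 32 genes, 14 were higher in T348I, 0 were lower and 18 did not pass the test (edgeR quasi-likelihood test, Benjamini-Hochberg adjusted p under 0.05 over 13743 genes). Of all tested genes, 13.7% were called higher, 13.3% lower and 27.0% either way. Beside that, 43.75% of the list was called higher. The log2 fold change was above 0 for 29 of the 32 genes (90.6%) and for 45.6% of all tested genes, and its median was 0.26 for the list and -0.030 for all tested genes. The changes were small, from -0.16 for DNAJB4 to 0.56 for HSPD1. By role, 1 of 4 HSP70 genes, 1 of 4 exchange factors, 2 of 6 genes of HSP90 and its co-chaperones, 0 of 2 small heat shock proteins, 1 of 4 J-domain proteins, 2 of 3 mitochondrial chaperones and 7 of 8 CCT subunits were called. The summed CPM of the 32 genes was also taken as a percentage of the TMM-scaled count total of tested genes. It was 0.985 ± 0.210% in wild-type libraries (0.712% to 1.26%, n = 5) and 1.20 ± 0.143% in T348I libraries (1.001% to 1.32%, n = 5), and these ranges overlap.

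**Figure D1:**
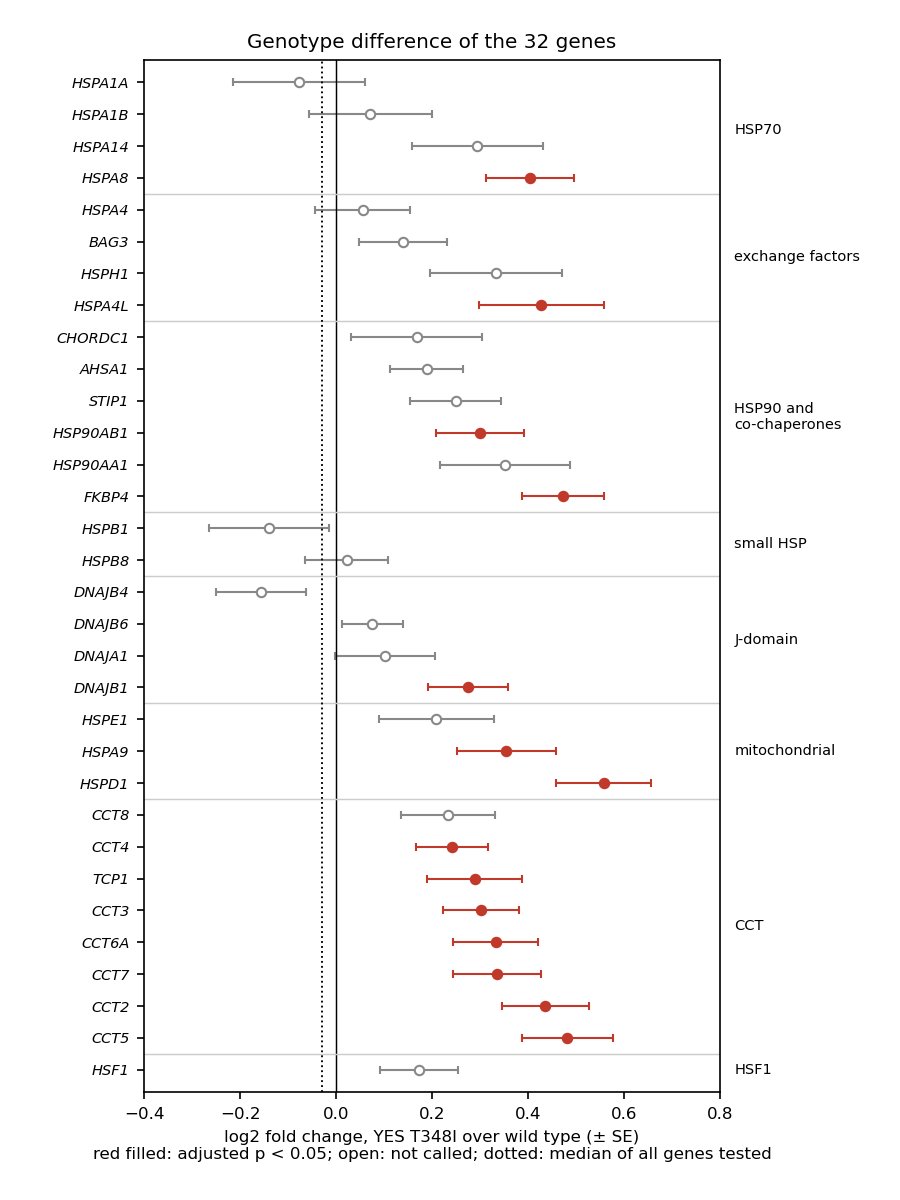
Log2 fold change of T348I over wild type (x axis, with SE bars) for the 32 genes grouped by role, from 5 libraries per genotype. Filled red points passed an adjusted p of 0.05, open points did not, and the dotted line at -0.030 is the median of all tested genes: 14 points are filled, all to the right of 0, and 7 of them are CCT subunits.

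The count of 14 depended on how the libraries were treated. It was 9 without T348I long-title library 2 or 3 (10.6% of all genes higher in each), and 9 without T348I short-title library 1 or 2 (9.62% and 11.9%). Summing the 3 T348I long-title libraries into 1 left 4 genes called higher, where 6.26% of all tested genes were: FKBP4, HSPD1, CCT2 and CCT5. Within the long-title set 2 were called higher, FKBP4 and HSPD1, and 0 lower, where 5.21% of genes were called higher and 3.73% lower. Within the short-title set 7 were called higher and 0 lower, where 6.43% of genes were called higher and 4.12% lower: FKBP4, HSPD1, CCT2, CCT5, CCT6A, HSP90AA1 and HSPH1. A test of whether the genotype difference differed between title sets, the interaction, called 0 of 13743 genes (edgeR quasi-likelihood test). At an unadjusted p under 0.05 were 459 genes and 0 of the 32, and no adjusted p of the 32 was below 0.997. The lack of a call does not show that the differences were equal. Most of the 32 log2 fold changes were larger in the short-title set, such as HSP90AA1 (0.17 in long-title, 0.63 in short-title libraries). Some went the other way, such as HSPA1A (0.054 and -0.27). Without the title set term 1 of the 32, CCT5, stayed under 0.05, a share below the 5.95% of all tested genes called higher in that fit. All T348I libraries lay above all wild-type libraries for 2 of the 32 genes, HSPA4L and CCT5, and for 6.94% of tested genes. All T348I libraries lay below for 0 of the 32 and for 4.15% of tested genes.

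Among the cytosolic HSP70 genes, the constitutive HSPA8 was higher in T348I and the heat-inducible pair HSPA1A and HSPA1B gave values near 0. HSPA8 encodes HSC70, which serves folding and trafficking in unstressed cells (ENSG00000109971.13, chromosome 11, 123057489 to 123063230, minus strand, GRCh38). It stood at 1414, 1749 and 1635 CPM in the wild-type long-title libraries and at 825 and 959 CPM in the short-title ones. The T348I values were 1962, 1975 and 2033 CPM in the long-title and 1379 and 1212 CPM in the short-title libraries. Within each title set every T348I library lay above every wild-type library, but the short-title T348I libraries lay below the long-title wild-type ones. T348I was 1.32-fold higher, a log2 fold change of 0.40 ± 0.093 (SE, as for all fold changes; edgeR adjusted p = 0.00656). With the T348I long-title libraries summed the adjusted p was 0.0525.

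HSPA1A, the classical stress-induced HSP70, was measured at 109, 183 and 187 CPM in the wild-type long-title libraries and 68.7 and 84.7 CPM in the short-title ones. In T348I libraries it was at 151, 167 and 179.8 CPM and at 65.1 and 60.9 CPM. Within the long-title set the T348I values lay inside the wild-type range (log2 fold change 0.054 in that set alone, edgeR adjusted p = 0.887). Within the short-title set both T348I libraries lay below both wild-type ones (-0.27, edgeR adjusted p = 0.211). Over all libraries the log2 fold change was -0.077 ± 0.14 (edgeR adjusted p = 0.713). HSPA1B gave 0.072 ± 0.13 (edgeR adjusted p = 0.713). Of the 50-base words in HSPA1A transcripts, 71.3% also occur in HSPA1B, and the counts leave out reads with several alignments, so the level of each is uncertain. For HSPA1B, 36.5% of the exon length also overlaps another annotated gene, AL671762.1, on the same strand, a further limit on its level. HSPA14, a ribosome-associated HSP70 relative, gave 0.29 ± 0.14 (edgeR adjusted p = 0.125). Its symbol belonged to 2 identifiers that share 15.9% of its words, and ENSG00000187522.14 was used.

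The exchange factors gave 1 call, HSPA4L, the lowest expressed gene of the 32 per length. HSPA4L, an HSP110 relative, was at 8.15, 10.02 and 8.93 CPM in the wild-type long-title libraries and at 6.71 and 9.66 CPM in the short-title ones. The T348I values were 10.3, 13.3 and 12.7 CPM and 10.1 and 12.2 CPM, so the genotypes did not overlap, by a narrow margin. Its log2 fold change was 0.43 ± 0.13 (edgeR adjusted p = 0.0276). That call was lost, with adjusted p of 0.0505 to 0.0798, without wild-type long-title library 3 or short-title library 1, or without T348I long-title library 2 or 3 or short-title library 2, and after summing the T348I long-title set (0.112). HSPA4, the most abundant member of this group, lay at 286, 338 and 281 CPM and at 197 and 272 CPM in wild-type libraries. It lay at 287, 294 and 294 CPM and at 271 and 271 CPM in T348I libraries, inside the wild-type range (log2 fold change 0.056 ± 0.098, edgeR adjusted p = 0.709). The HSP110 gene HSPH1 gave 0.33 ± 0.14 (edgeR adjusted p = 0.0892), and BAG3, which couples HSP70 to selective autophagy, gave 0.14 ± 0.091 (edgeR adjusted p = 0.277).

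FKBP4 led the HSP90 group. It encodes the immunophilin FKBP52, an HSP90 co-chaperone of steroid receptors (ENSG00000004478.7, chromosome 12, 2794953 to 2805423, plus strand, GRCh38). Wild-type levels were 95.9, 116 and 118 CPM in the long-title and 61.1 and 68.7 CPM in the short-title libraries. T348I levels were 149.8, 152 and 150.3 CPM and 104 and 80.6 CPM. Every T348I library exceeded every wild-type library of its own title set. Its log2 fold change was 0.47 ± 0.086 (edgeR adjusted p = 0.00151), and each title set on its own gave a call, with 0.45 in the long-title set (adjusted p = 0.0312) and 0.52 in the short-title set (adjusted p = 0.0372).

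HSP90AB1 encodes the constitutive HSP90 beta and had the highest level per kilobase of exon among the 32 genes, 567 CPM per kilobase in wild-type libraries. Its wild-type values were 1800.4, 2119 and 1812 CPM in the long-title and 1221 and 1502 CPM in the short-title libraries. Its T348I values were 2173, 2244 and 2306 CPM and 1905 and 1699 CPM, again above wild type within each set. The difference was 0.30 ± 0.093 on the log2 scale (edgeR adjusted p = 0.0290). The call was lost, with adjusted p of 0.0501 to 0.0954, without wild-type long-title library 3 or without any one of the T348I libraries, and after summing the T348I long-title set (0.134). Of its 50-base words, 16.6% occur in other genes, mostly a pseudogene.

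For HSP90AA1, the inducible HSP90 alpha, the wild-type libraries spread from 873 to 1828 CPM. They held 1145, 1828 and 1344 CPM in the long-title set and 873 and 1112 CPM in the short-title set. The T348I libraries held 1546, 1670.0 and 1669 CPM and 1622 and 1414 CPM, all below wild-type long-title library 2 and all above the other 4 wild-type libraries. Their log2 fold change was 0.35 ± 0.14 (edgeR adjusted p = 0.0690). DESeq2 (adjusted p = 0.0397) and limma-voom (0.0471) called it, as did edgeR when wild-type long-title library 2 was dropped (0.49, adjusted p = 0.00356). That library was the highest, so dropping it had to raise the difference. Across removals of each library the log2 fold change was 0.26 to 0.49 (edgeR adjusted p from 0.00356 to 0.185). The other co-chaperones did not pass the test. STIP1, or HOP, which bridges HSP70 and HSP90, gave 0.25 ± 0.095 (edgeR adjusted p = 0.0666). AHSA1, the activator of the HSP90 ATPase, gave 0.19 ± 0.076 (edgeR adjusted p = 0.0804), and CHORDC1, an HSP90-binding protein, gave 0.17 ± 0.14 (edgeR adjusted p = 0.385).

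**Figure D2:**
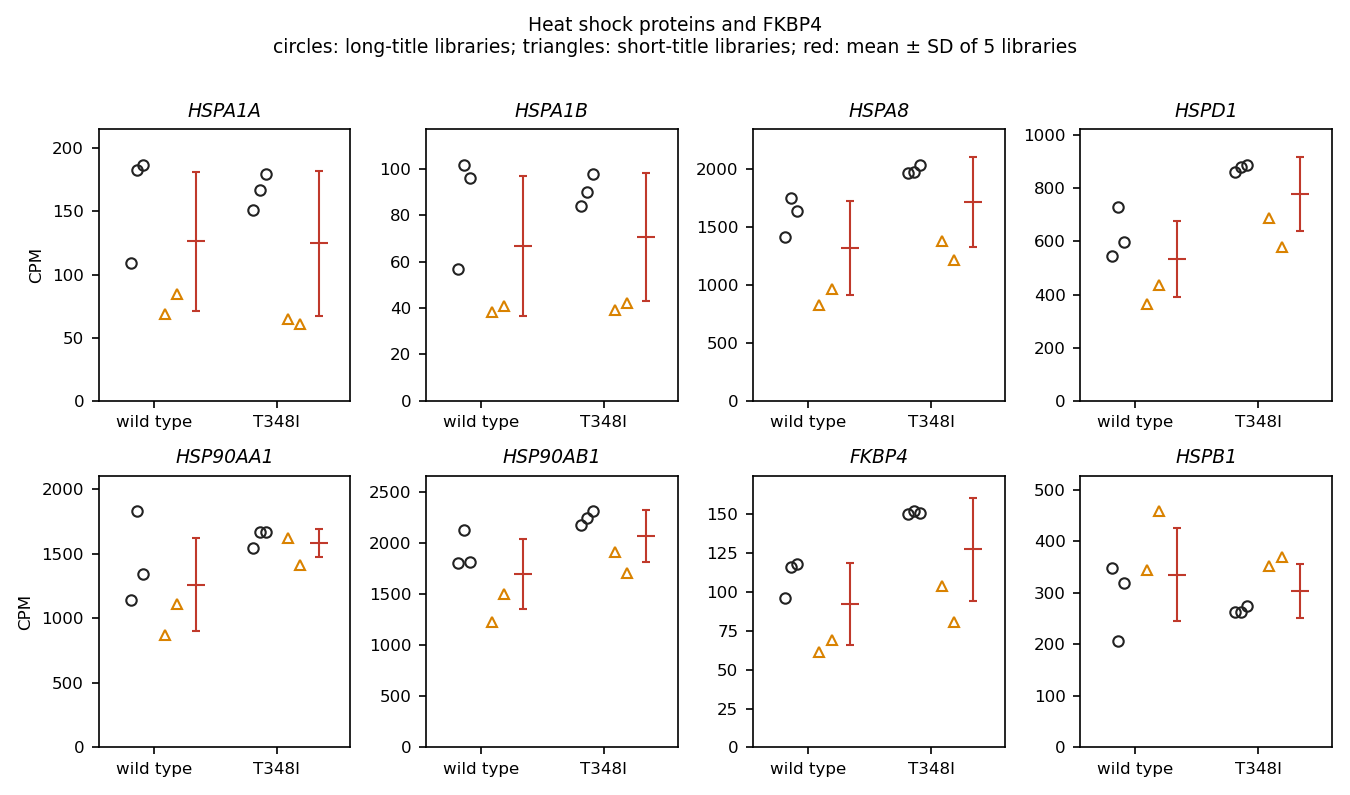
CPM in each library (y axis, from 0) for 8 heat shock and co-chaperone genes by genotype, with circles for long-title and triangles for short-title libraries and red bars for mean ± SD of 5 libraries. HSPD1, FKBP4 and HSPA8 lie higher in T348I within each title set, while HSPA1A and HSPA1B separate by title set and their genotypes overlap.

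The small heat shock proteins, which hold unfolding proteins in a refoldable state without ATP, gave no call. HSPB1, or HSP27, was at 348.2, 207 and 319 CPM in the wild-type long-title libraries and 344 and 458 CPM in the short-title ones, against 263, 262 and 275 CPM and 352 and 369 CPM in T348I. The T348I values lay inside the wild-type range, and the log2 fold change was -0.14 ± 0.13 (edgeR adjusted p = 0.437). HSPB8, which works with BAG3, gave 0.023 ± 0.086 (edgeR adjusted p = 0.870).

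Of the J-domain proteins, DNAJB1, the main heat-inducible HSP40 of the cytosol, was higher in T348I. It was at 121, 146 and 157 CPM and at 114 and 133 CPM in the wild-type long-title and short-title libraries, and at 163, 166 and 179 CPM and 145 and 158 CPM in the T348I ones. Within each title set the genotypes did not overlap, and over all 10 libraries 4 of 5 T348I values exceeded the highest wild-type value. DNAJB1 differed by 0.28 ± 0.084 on the log2 scale (edgeR adjusted p = 0.0268), and the call was lost, with adjusted p of 0.0538 to 0.0749, without wild-type short-title library 1 or without T348I long-title library 2 or 3 or short-title library 2. Summing the T348I long-title libraries gave an adjusted p of 0.139. DNAJA1, the most abundant J-domain gene of the list, was at 569, 778 and 603 CPM and at 309 and 377 CPM in wild type, and at 617, 654 and 672 CPM and 431 and 391 CPM in T348I. Its genotypes overlapped in the long-title set (log2 fold change 0.10 ± 0.10, edgeR adjusted p = 0.499). DNAJB4 gave -0.16 ± 0.094 (edgeR adjusted p = 0.234), and DNAJB6, a suppressor of protein aggregation, gave 0.076 ± 0.064 (edgeR adjusted p = 0.407).

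The mitochondrial chaperonin gene HSPD1, encoding HSP60, had the largest fold change of the 32 genes (ENSG00000144381.16, chromosome 2, 197486581 to 197516737, minus strand, GRCh38). Wild-type libraries held 545, 731 and 597 CPM in the long-title set and 365 and 436 CPM in the short-title set. T348I libraries held 861, 879 and 889 CPM and 688 and 578 CPM. No T348I library fell below a wild-type library of its own title set, and 3 of 5 exceeded all wild-type libraries. T348I was 1.47-fold higher, or 0.56 ± 0.099 on the log2 scale (edgeR adjusted p = 0.00135). Each title set on its own gave a call, with 0.49 in the long-title set (adjusted p = 0.0408) and 0.67 in the short-title set (adjusted p = 0.0181).

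HSPE1 encodes HSP10, the lid of the HSP60 barrel, and lies head to head with HSPD1 with 105 bases between their start sites. Its wild-type values were 25.9, 42.1 and 29.6 CPM and 32.6 and 27.1 CPM, and its T348I values were 36.2, 38.5 and 35.1 CPM and 38.1 and 33.4 CPM. Wild-type long-title library 2 was above all T348I libraries and the other 4 wild-type libraries were below them, and the log2 fold change was 0.21 ± 0.12 (edgeR adjusted p = 0.213). Without that library, picked for being high, the log2 fold change was 0.34 (edgeR adjusted p = 0.0108). Over all single-library removals it ran from 0.14 to 0.34 (edgeR adjusted p from 0.0108 to 0.394). Of the HSPE1 words, 11.7% occur in other genes, and pseudogenes of its name took 6.25 counts for each 100 of its own.

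HSPA9 encodes mortalin, the mitochondrial HSP70 that pulls proteins through the inner membrane. It was at 348.5, 467 and 399 CPM and at 257 and 345 CPM in wild type, and at 485, 475 and 494 CPM and 431 and 419 CPM in T348I. The genotypes did not overlap within either set. HSPA9 differed by 0.35 ± 0.10 on the log2 scale (edgeR adjusted p = 0.0218). The call was lost without T348I short-title library 1 (0.0657) and after summing the T348I long-title set (0.0929).

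All 8 CCT subunits of the list had a higher mean in T348I, and 7 of the 8 passed the test. CCT is built of rings in which each subunit takes a fixed place. The largest change was that of CCT5, the epsilon subunit (ENSG00000150753.11, chromosome 5, 10249921 to 10266412, plus strand, GRCh38). CCT5 stood at 263, 355 and 312 CPM in the wild-type long-title libraries and at 242 and 297 CPM in the short-title ones. In T348I it stood at 412, 425 and 407 CPM and at 424 and 379 CPM. All T348I libraries exceeded all wild-type libraries of either title set. The log2 fold change was 0.48 ± 0.095 (edgeR adjusted p = 0.00259).

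CCT2, the beta subunit, was at 179.7, 245 and 212 CPM and at 129.9 and 154 CPM in wild type, against 279, 285 and 276 CPM and 211 and 189.5 CPM in T348I (log2 fold change 0.44 ± 0.090, edgeR adjusted p = 0.00363). CCT3, the gamma subunit, was at 344, 395 and 369 CPM and at 252 and 308 CPM, against 447, 451 and 446 CPM and 373 and 335 CPM (0.30 ± 0.079, edgeR adjusted p = 0.0133). CCT6A, a zeta subunit, was at 317, 391.8 and 327 CPM and at 255 and 307 CPM, against 403, 407 and 414 CPM and 400.3 and 379 CPM (0.33 ± 0.088, edgeR adjusted p = 0.0143). For each of these 3 subunits the genotypes did not overlap within a title set. CCT7 (eta) rose from 211 ± 36.2 to 266 ± 24.6 CPM (n = 5 each; 0.34 ± 0.091, edgeR adjusted p = 0.0159) and CCT4 (delta) from 209 ± 28.5 to 246 ± 15.1 CPM (0.24 ± 0.075, edgeR adjusted p = 0.0294). TCP1 (alpha) rose from 418 ± 83.1 to 508 ± 47.7 CPM (0.29 ± 0.099, edgeR adjusted p = 0.0446).

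CCT8, the theta subunit, did not pass the test. It was at 137, 152 and 117 CPM and at 90.8 and 115 CPM in wild type, and at 141, 146 and 145 CPM and 146 and 134 CPM in T348I. Wild-type long-title library 2 lay above every T348I library. Its log2 fold change was 0.23 ± 0.098 (edgeR adjusted p = 0.0936), and without that library it was 0.31 (adjusted p = 0.0190). That library was picked for being high, so its removal had to raise the difference. Leaving out each library in turn gave 0.15 to 0.31 (edgeR adjusted p from 0.0190 to 0.236). Per kilobase of exon the subunits ranged from 36.6 (CCT8) to 84.7 CPM (TCP1) in wild type and from 42.7 (CCT8) to 103 CPM (TCP1) in T348I.

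Among the CCT calls, CCT5, CCT2, CCT3 and CCT7 held when any one library was left out. Their largest edgeR adjusted p was then 0.0119, 0.0160, 0.0492 and 0.0495, so CCT3 and CCT7 held only narrowly. CCT5 and CCT2 also held when the T348I long-title libraries were summed. With that sum, adjusted p was 0.0745 for CCT6A, 0.0958 for CCT7, 0.0989 for CCT3, 0.129 for CCT4 and 0.163 for TCP1. TCP1 lost its call, with adjusted p of 0.0532 to 0.113, without wild-type long-title library 1 or 3 or short-title library 1, or without any one of the T348I libraries. CCT4 lost it, with adjusted p of 0.0538 to 0.0892, without wild-type short-title library 1 or without any one of the T348I libraries. CCT6A lay just past the threshold (adjusted p = 0.05003) without T348I short-title library 1.

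**Figure D3:**
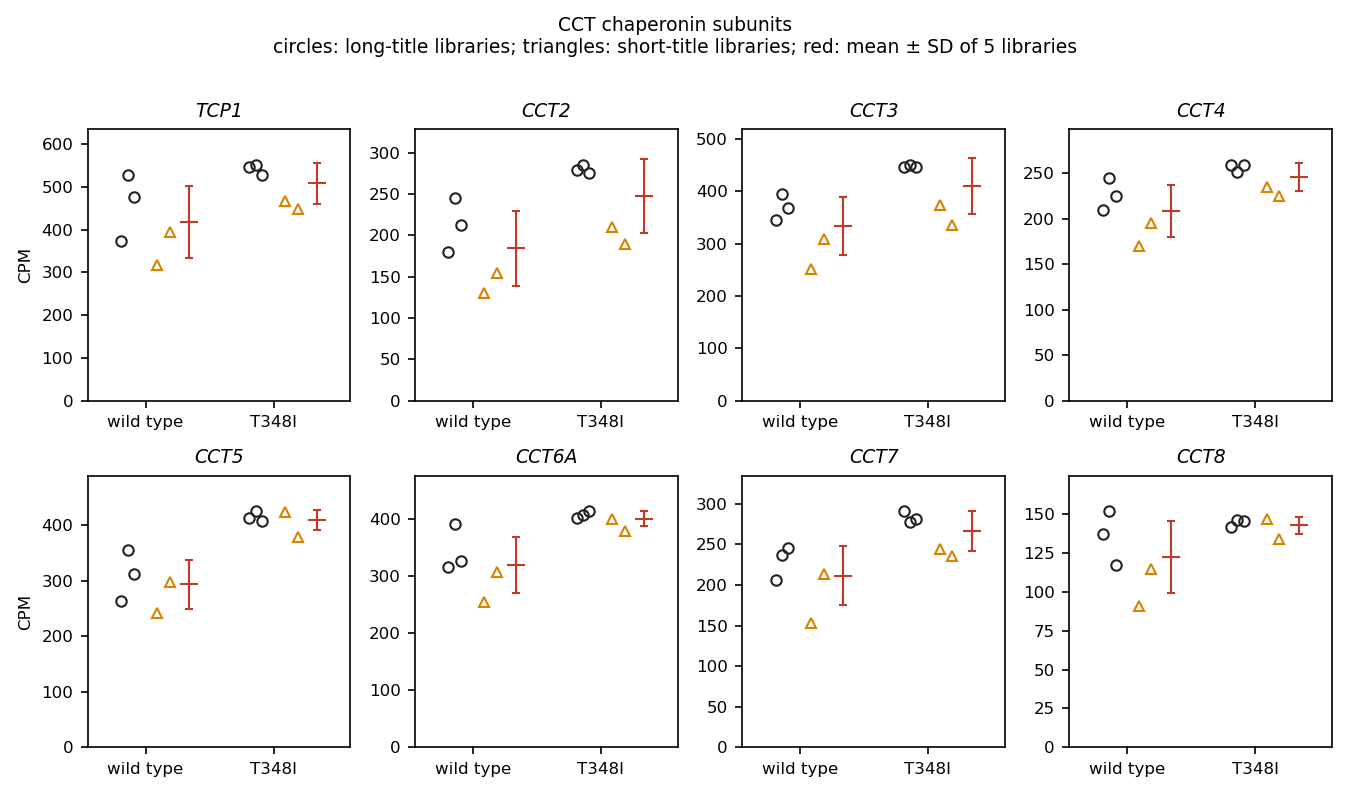
CPM in each library (y axis, from 0) for the 8 CCT subunit genes by genotype, with circles for long-title and triangles for short-title libraries and red bars for mean ± SD of 5 libraries. CCT5 is the subunit whose genotypes do not overlap at all, and in CCT8 a wild-type library at 152 CPM lies above all T348I libraries.

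HSF1, the transcription factor that drives the heat shock response, was not called. It was at 56.8, 55.6 and 73.9 CPM and at 61.8 and 62.9 CPM in wild type, and at 71.7, 67.0 and 69.0 CPM and 72.4 and 70.6 CPM in T348I. The T348I values lay above 4 wild-type libraries and below wild-type long-title library 3. The log2 fold change was 0.17 ± 0.082 (edgeR adjusted p = 0.135), and without that library, picked for being high, 0.25 (adjusted p = 0.0172). With each library removed in turn it was 0.14 to 0.25 (edgeR adjusted p from 0.0172 to 0.249). HSF1 is controlled mainly at the protein level, so its transcript does not measure its activity. Among genes with a promoter window, 3 of 6 with a 3-unit heat shock element were called higher (HSPA8, HSP90AB1 and HSPD1). Without a 3-unit element 9 of 22 were called higher, where 13.7% of all tested genes were. Some of these 22 genes hold a shorter run, among them HSPA1A, HSPA1B and DNAJB1. The split is therefore not one of genes with and without any heat shock element.

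The title set difference was larger in size than the genotype difference in 18 of the 32 genes, and in 8144 of 13743 tested genes. This comparison was added after the data were seen. In the long-title libraries 20 of the 32 genes were higher, where 22.1% of tested genes were, and 1, HSPB1, was lower, where 21.0% were. HSPA1A averaged 163 CPM in long-title and 69.9 CPM in short-title libraries, a 2.33-fold difference (log2 1.22 ± 0.15, edgeR adjusted p = 3.55e-05). Its pair HSPA1B differed 2.18-fold and HSPB8 2.06-fold (edgeR adjusted p = 4.05e-05 and 2.74e-06). DNAJA1 differed 1.73-fold, HSPA8 and FKBP4 1.66-fold each, and HSPB1 was 0.733 times as high. In 9 of the 32 genes all long-title libraries lay above all short-title ones, as they did in 12.7% of tested genes, and in 0 of the 32 they all lay below, where 10.2% of tested genes did. The genes called by title set included 5 of 8 CCT subunits, with CCT5, CCT6A and CCT8 not called. Multimapping reads moved with title set too, at 9.15% to 13.2% of reads in long-title and 6.08% to 6.86% in short-title libraries, and their part in these differences was not tested.

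**Figure D4:**
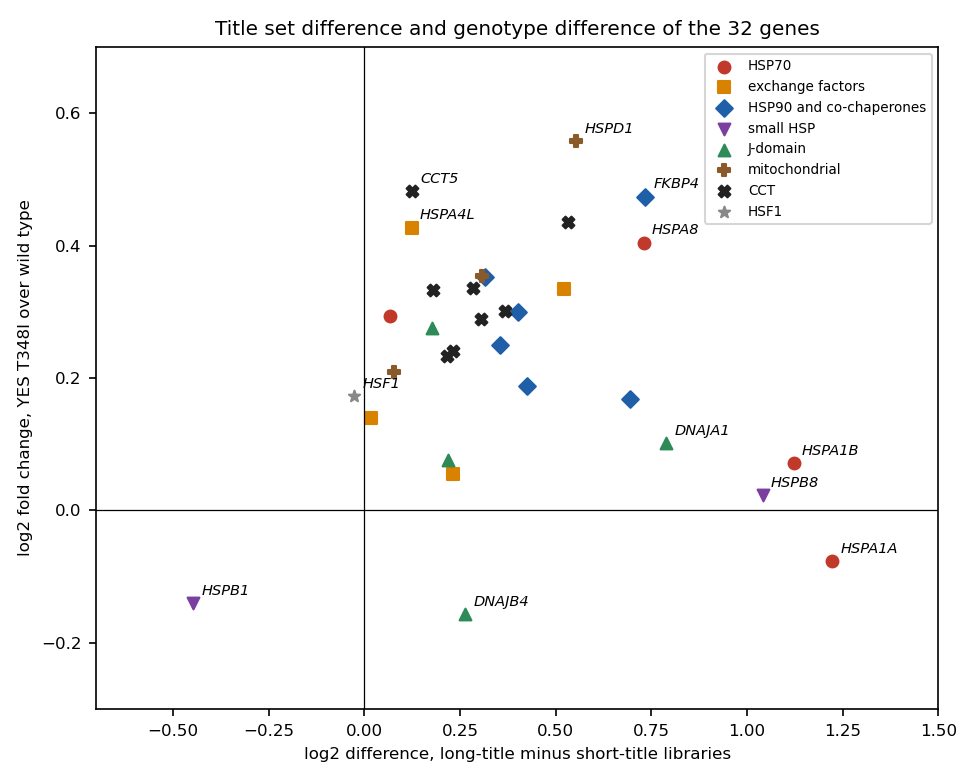
Each of the 32 genes by its title set difference (x axis, log2 of long-title over short-title) and its genotype difference (y axis, log2 of T348I over wild type), with a symbol for each role. HSPA1A, HSPA1B and HSPB8 lie far to the right at 1.04 to 1.22 with genotype values near 0, and CCT5 lies high at 0.48 with a title set value of 0.12.

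The wild-type long-title libraries 1 and 2 moved in opposite directions over the list. For each gene the deviations of the 3 libraries from the mean of the others sum to 0, so these 2 movements are not separate results. Against the mean of the other wild-type long-title libraries, library 1 was lower in 28 of the 32 genes (median log2 difference -0.27) and library 2 was higher in 28 (median 0.26). Over all tested genes the same medians were -0.0031 and -0.0054. HSPH1 was highest of these in library 2, at 0.65, and HSPA1B lowest in library 1, at -0.80. Library 2 also had 8.64% of its reads unmapped, where the other libraries had at most 5.29%. The part of read quality in these levels was not tested. Without library 2, 21 of the 32 genes were called higher, where 16.9% of tested genes were: the same 14 and HSPA14, HSPH1, HSP90AA1, STIP1, AHSA1, HSPE1 and CCT8. Without both libraries 1 and 2 the same 21 were called, where 16.0% of tested genes were higher. Without library 1 alone 13 were called, where 1978 of 14028 tested genes were higher. These libraries were picked after their levels were seen.

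The wider chaperone network was described by lists of 127 genes, of which 126 were found and 114 tested. Of these 114, 27 were higher in T348I and 3 lower, beside 13.7% and 13.3% of all tested genes. Without T348I short-title library 1, 17 were higher (9.62% of all tested genes), and summing the T348I long-title libraries left 14 higher and 1 lower (6.26% and 3.92%). Dropping wild-type long-title library 1 gave 6 lower genes (13.3% of all tested genes), and dropping short-title library 1 of the same genotype gave 5 (11.6%). Actins, tubulins and tubulin cofactors held 10 of the 27, more than any other of these lists: 10 of 18 were higher and 1 lower, with a median log2 fold change of 0.27. TUBB6 rose from 106 ± 11.9 to 178 ± 11.8 CPM (n = 5 each; log2 fold change 0.74 ± 0.083, edgeR adjusted p = 7.65e-05). TUBA1B rose from 958 ± 102 to 1664 ± 103 CPM (0.80 ± 0.094, edgeR adjusted p = 0.000108) and TUBA1C from 403 ± 53.0 to 626 ± 48.7 CPM (0.64 ± 0.089, edgeR adjusted p = 0.000297). TUBA1A, an alpha tubulin of neurons and other cells, fell from 369 ± 109 to 292 ± 105 CPM (-0.35 ± 0.10, edgeR adjusted p = 0.0219). Tubulin and actin genes resemble each other closely, so the split of reads between them is less certain.

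In the mitochondrial chaperone and protease system 5 of 11 genes were higher and 0 lower, where 13.7% of all tested genes were higher. They included the exchange factor GRPEL2 (0.55 ± 0.11, edgeR adjusted p = 0.00224), the disaggregase CLPB (0.31 ± 0.071, adjusted p = 0.00715) and the protease HTRA2 (0.28 ± 0.077, adjusted p = 0.0165). Of the other HSP70, HSP90 and small heat shock genes 1 of 6 was called, TRAP1, the mitochondrial HSP90, which rose from 46.8 ± 4.14 to 66.9 ± 3.94 CPM (0.52 ± 0.079, edgeR adjusted p = 0.000532). The next 3 lists had shares of higher genes at or below that 13.7%. Other J-domain genes gave 2 of 26, DNAJC9, a histone chaperone (0.78 ± 0.11, edgeR adjusted p = 0.000380), and the mitochondrial DNAJA3 (0.41 ± 0.088, adjusted p = 0.00439). Other HSP70 and HSP90 co-chaperones gave 3 of 24, TOMM34, PPP5C and CACYBP, with log2 fold changes of 0.37, 0.32 and 0.47. Prefoldin and other CCT partners gave 2 of 15, the prefoldin subunits PFDN2 (0.60 ± 0.11, edgeR adjusted p = 0.00165) and VBP1 (0.32 ± 0.097, adjusted p = 0.0279).

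Of the heat shock factors and other heat-inducible genes, 4 of 14 were higher and 2 lower, the latter a share near the 13.3% of all tested genes called lower (13.7% were called higher). GADD45B, a stress-response gene, rose from 22.0 ± 2.05 to 35.1 ± 9.11 CPM (0.65 ± 0.11, edgeR adjusted p = 0.00127), and MRPL18 (0.30, adjusted p = 0.0322) and ZFAND2A (0.34, adjusted p = 0.0392) were also higher. RGS2, a regulator of G-protein signalling, fell from 5.23 ± 1.24 to 3.16 ± 0.793 CPM (-0.73 ± 0.16, edgeR adjusted p = 0.00469). JUN (0.30) and HSF4 (-0.81) completed the count and are named after their values were seen.

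**Figure D5:**
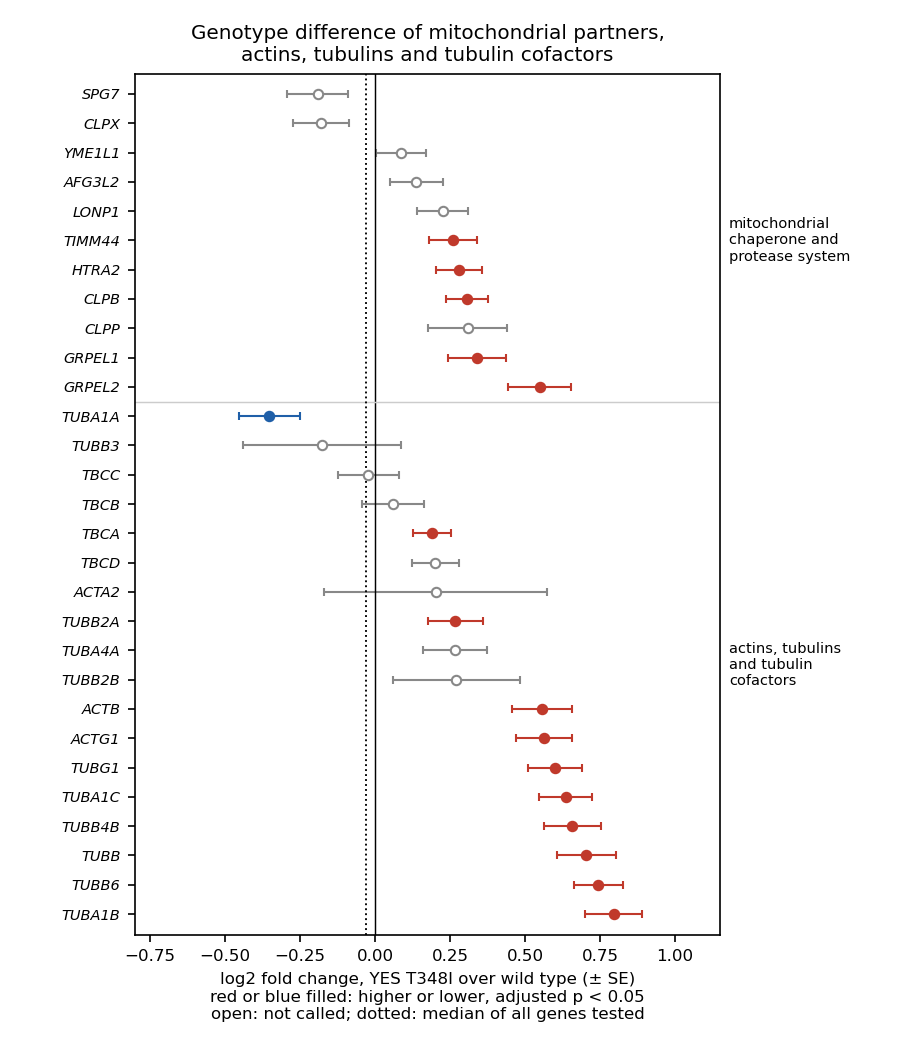
Log2 fold change of T348I over wild type (x axis, with SE bars) for 11 tested genes of the mitochondrial chaperone and protease system and 18 actins, tubulins and tubulin cofactors. Filled points passed an adjusted p of 0.05 (red higher, blue lower) and the dotted line is the median of all tested genes: TUBA1B at 0.80 is the largest rise and TUBA1A at -0.35 the one fall.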

How the data were processed

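Poly(A) RNA was made into stranded libraries, per the labels' protocols. The submitters' processing notes name CASAVA 1.8.2, Trimmomatic 0.35, STAR 2.5.1b and the build GRCh38. The annotation release is not given in the sources used here. The authors deposited read counts per gene and library, whole and not normalized, in an unstranded and 2 stranded columns. The opposite-strand counts were used, since 92.2% to 94.5% of strand-assigned reads fell there. Lines that name no gene, such as those for unmapped or multimapping reads (20.7% to 30.0% of reads in all), stayed out of library sizes and tests. Symbols came from GENCODE 29 (57836 of 58174 identifiers matched, and 0.0165% of counts lay on the others). A further 45 copies on chromosome Y, with 5 counts, were left out.

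Counts were tested with edgeR 4.0.16 in R 4.3.3 (filterByExpr with minimum count 10 and total 15, TMM, quasi-likelihood F test, title set and genotype in the model), with Benjamini-Hochberg adjustment over 13743 genes and a threshold of 0.05. SEs were calculated as the size of the log2 fold change divided by the root of its F statistic. The script was tested on simulated data. Sequences are from RefSeq, and shared sequence was measured as 50-base words of GENCODE transcripts. The members, lists and tests were chosen with earlier results of these data known. Values per library are given, in each role, for up to 4 called genes with the lowest p and the uncalled gene with the highest mean, and from each wider list up to 3 called genes in the more frequent direction and 1 in the other are named. Replicate numbers were not shown to pair the libraries, and the model held no pairing. In the long-title set, same-numbered deviations correlated at -0.025, 0.16 and 0.075, and differently numbered ones at -0.16 to 0.079. Deviations within a set sum to 0, so these values cannot decide the question. Alternatives used DESeq2 1.42.0, voom of limma 3.58.1, RLE or no scaling, other filters, unstranded counts, a model without title set, either title set by itself, a replicate block, and summed or left-out libraries.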

Additional observations from a re-analysis of the deposited data

Results flagged for a closer look

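In 64 groups of 5 libraries (the 32 genes in each genotype), the gap between an extreme library and its nearest neighbour was compared with the range of the group. DNAJB4, a J-domain gene, stood apart in wild-type long-title library 2, at 107 CPM against 75.3 CPM in the next library, a gap of 0.836 of the range where 0.71 is the critical value. Even among 5 like libraries chance flags about 1 in 20 groups, so 1 flag in 64 groups is not read as a result. Each group here pools 2 title sets, so the rate of chance flags in these groups is not known.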

How the results depend on the processing

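The count of 14 members higher stayed at 13 to 18 with RLE size factors, library sizes alone, DESeq2, limma-voom, no low-count filter, the 1 CPM filter, unstranded counts and the replicate block (16). It was 21 without wild-type long-title libraries 1 and 2, and 1 without the title set term, 2 and 7 in the long-title and short-title libraries alone and 4 after summing the T348I long-title set. Leaving out each library gave 9 to 21. No alternative called a member lower. All genes higher (1884) were 818 without the title set term, 698 and 935 in the long-title and short-title libraries alone and 899 summed, with 1342 to 2379 on leaving out each library. All genes lower (1825) were 497, 499, 599 and 563 in that order, and 1108 to 2297. Wider genes higher (27) were 13, 12, 14 and 14, and 17 to 38. Wider genes lower (3) were 0, 1, 1 and 1, then 5 with no low-count filter, 5 with the replicate block, 7 without both wild-type libraries and 2 to 6 on leaving out each library. Members lower in long-title libraries (1) were 0 to 1 on leaving out each library, with 0 without wild-type short-title library 2, and members higher there (20) were 14 with library sizes alone and 14 to 22. The cause was not tested, though sums and single sets hold fewer libraries.

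Signs turned only in uncalled genes: HSPA1A to 0.054 in long-title libraries alone and 0.0030 without wild-type short-title library 2 (-0.21 to 0.0030 on leaving out each library), HSPA1B to -0.014 without both wild-type libraries and -0.058 without library 1 alone (-0.058 to 0.16), HSPA4 to -0.052 in long-title libraries and -0.035 without wild-type short-title library 1 (-0.035 to 0.12), HSPB8 to -0.025 in long-title libraries, -0.018 on dropping wild-type long-title library 2 and -0.016 on dropping T348I short-title library 1 (-0.018 to 0.068), and DNAJA1 to -0.0088 in long-title libraries. With the replicate block, an unproven pairing, HSPH1 (adjusted p = 0.0366) and HSP90AA1 (0.0459) were also called by edgeR. In the short-title set the same-numbered correlations were 0.217 and 0.217, and the differently numbered ones -0.217. With 2 libraries per genotype these are a single value by arithmetic. The CPM filter changed no member's call. Depth limits low genes such as HSPA4L, which had 81 to 212 counts per library.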
